A study of Mus musculus with 12 samples.

Results

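The Lce1 keratinocytes described here were the cells of mouse paw epidermis in which the 14 genes whose symbols start with Lce1 together held at least 0.5% of the cell's UMIs (unique molecular identifiers, each standing for 1 captured RNA molecule), and in which Cd74, a marker of Langerhans cells and other antigen-presenting cells, and Cd3e, a T cell receptor subunit, had 0 UMIs. Cells first had to hold 200 to 6000 detected genes (500 to 6000 in female mice) and at most 5% mitochondrial UMIs. These rules kept 3655 Lce1 keratinocytes of 126375 filtered cells. The remaining cells without Cd74 or Cd3e, 114803 in all, are called other keratinocytes below. The cells were thus chosen by measured values, namely the Lce1 share and the Cd74 and Cd3e counts, so levels that set Lce1 keratinocytes apart from other cells are given as a description with no test.

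The study profiled single cells from glabrous hind paw epidermis of 12 wild-type C57BL/6J mice with the 10x Genomics Chromium 3′ assay, with 1 library per mouse. Mice aged 6 to 8 weeks were fed for 10 weeks with either regular chow containing 11% fat (RD) or the EnvigoTD88137 chow containing 42% fat (the high-fat diet, HFD), and were 16 to 18 weeks old at harvest. There were 3 mice in each of 4 groups: males and females on RD, and males and females on HFD. The HFD serves as a model of painful diabetic neuropathy, and the comparison of HFD with RD within each sex asks what the diet changes in the epidermis. Male libraries carried Cell Ranger 6.1.0 in their headers and female libraries Cell Ranger 7.2.0, so sex and software version cannot be told apart.

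Terminally differentiated keratinocytes (tdKCs) are the last living cells of the epidermis before they turn into the dead, cross-linked corneocytes of the stratum corneum. As they mature they make cornified envelope precursors, among them loricrin, filaggrin and the late cornified envelope (Lce) proteins, many of which are encoded side by side in the epidermal differentiation complex. They then release barrier lipids and proteases, and they lose their nucleus, ribosomes and mitochondria.

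The 14 Lce1 genes lay within 372.5 kb of mouse chromosome 3 (GRCm38, chr3:92646535-93019060). Promoters of the family are shown because the rule counts the family as a unit. RefSeq (GRCm38.p6) gave the 250 bases before the start of 13 of the 14 genes, and Lce1f was not matched. The word ACTGTCTCACAG was found in 7 of the 13 Lce1 promoters, in 0 of the 34 matched promoters of the other listed genes of the complex, and in 7 (0.0213%) of all 32851 promoters of that length, read on the sense strand. The word CAGAATAAAAGG was likewise in 7 of the 13 and in 7 of all 32851. In the Lce1a2, Lce1b and Lce1c promoters below, capitals mark these words with the shared bases that flank them, and Lce1a2 holds both. In the promoters of Lor and Flg, which encode loricrin and profilaggrin, capitals mark the AP-1 word TGANTCA and the word TATAAA.
Lce1a2 (chr3:92670316-92670565, minus strand): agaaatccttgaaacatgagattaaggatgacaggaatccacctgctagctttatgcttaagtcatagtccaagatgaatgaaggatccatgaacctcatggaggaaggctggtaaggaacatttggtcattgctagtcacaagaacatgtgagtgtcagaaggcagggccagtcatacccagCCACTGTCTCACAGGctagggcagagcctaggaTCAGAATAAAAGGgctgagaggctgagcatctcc
Lce1b (chr3:92656927-92657176, minus strand): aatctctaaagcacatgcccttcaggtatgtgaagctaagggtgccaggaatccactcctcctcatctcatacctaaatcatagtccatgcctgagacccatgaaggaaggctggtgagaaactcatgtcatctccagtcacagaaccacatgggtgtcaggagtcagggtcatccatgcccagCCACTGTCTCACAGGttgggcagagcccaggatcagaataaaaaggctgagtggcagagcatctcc
Lce1c (chr3:92678997-92679246, plus strand): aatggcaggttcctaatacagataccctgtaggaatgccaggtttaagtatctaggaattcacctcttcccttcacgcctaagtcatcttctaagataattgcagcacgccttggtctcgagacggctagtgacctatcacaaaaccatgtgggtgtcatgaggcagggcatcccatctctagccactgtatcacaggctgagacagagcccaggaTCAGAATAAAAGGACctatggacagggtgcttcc
Lor (chr3:92083143-92083392, minus strand): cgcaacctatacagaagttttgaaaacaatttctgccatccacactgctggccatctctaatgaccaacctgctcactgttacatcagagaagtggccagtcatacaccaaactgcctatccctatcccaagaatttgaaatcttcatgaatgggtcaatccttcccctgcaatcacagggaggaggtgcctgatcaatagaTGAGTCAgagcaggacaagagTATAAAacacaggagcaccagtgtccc
Flg (chr3:93273296-93273545, plus strand): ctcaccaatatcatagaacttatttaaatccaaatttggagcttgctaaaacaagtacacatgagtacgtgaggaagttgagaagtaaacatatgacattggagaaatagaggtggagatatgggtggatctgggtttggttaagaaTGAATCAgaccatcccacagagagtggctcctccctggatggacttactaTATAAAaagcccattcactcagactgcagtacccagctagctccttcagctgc
The AP-1 word TGANTCA, searched on both strands, was in 0 of 13 Lce1 promoters, 17 of the 34 other promoters of the complex and 6.75% of all promoters. TATAAA on the sense strand was in 2 of 13, those of Lce1d and Lce1m, in 18 of 34, and in 7.59% of all. The 2 shared words were picked after the sequences were compared, and a match or its absence describes these letters only.

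Averaged over 12 mice, Lce1b held 12.3% of the family's UMIs in Lce1 keratinocytes, Lce1a1 11.8%, Lce1l 11.3% and Lce1a2 10.2%, with ranges over mice that overlapped, and Lce1k held the smallest part with 1.47%. The gene with the highest mean level differed between the sexes. In males it was Lce1a1, with 30470 CPM (counts scaled to a common total, from the UMIs summed over the Lce1 keratinocytes of a mouse) against 28930 CPM for Lce1b, and in females Lce1l, with Lce1b at 33590 CPM. The part held by Lce1l ran from 7.78% to 14.9%. Its level was 20420 ± 3828 CPM (SD, n = 6) in male mice and 37740 ± 2362 CPM (n = 6) in female mice, and the 6 female mice (33930 to 40470 CPM) all lay above the 6 male mice (15590 to 24340 CPM). The members share sequence: in 13 of the 14 genes, 6.65% to 31.3% of 50-base words of the transcript occur in another member (0% in Lce1m), so the split between members is less certain than the family sum.

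The family sum made up 18.5%, 20.1% and 25.8% of the UMIs summed over Lce1 keratinocytes in the male RD mice and 26.5%, 25.6% and 27.5% in the male HFD mice. It was 28.9%, 25.1% and 27.5% in female RD and 25.9%, 28.4% and 25.3% in female HFD mice. In single cells the share reached 65.2%, so in the most extreme cells the family outweighed all other RNA.

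The cut at 0.5% fell in a sparse stretch of the distribution in most libraries. In the plot of the Lce1 share by cell, most cells lay far below it and a separate peak lay near the upper end. Male RD 2 and male HFD 2 also held many shallow cells not far above the cut. At 1% to 2% Lce1 they had 95 and 141 cells, with median depths of 1364 and 1032 UMIs. In male libraries 9 to 25 cells lay between 0.4% and 0.5% and 11 to 19 between 0.5% and 0.6%. In female libraries these counts were 1 to 4 and 1 to 3. The highest cell outside had 0.4994% and the lowest inside 0.5%. Lce1 UMIs also occurred in cells that should lack these genes, namely 133 to 470 cells per library with at least 5 Cd74 UMIs. Of these, 86.1% to 98.5% had an Lce1 UMI in male and 37.7% to 58.1% in female libraries. Their median depths were 2864 to 5618 and 5828 to 7792 UMIs. Other keratinocytes, with higher median depths, were alike, at 89.1% to 98.9% and 41.9% to 62.8%. An Lce1 UMI alone thus did not mark an Lce1 keratinocyte. Whether these UMIs came from free RNA in the droplets was not tested. The median share in the Cd74 cells was 0.0355% to 0.0904% in males and at most 0.0110% in females, and 0 to 6 of these cells per library reached 0.5%.

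**Figure D1:**
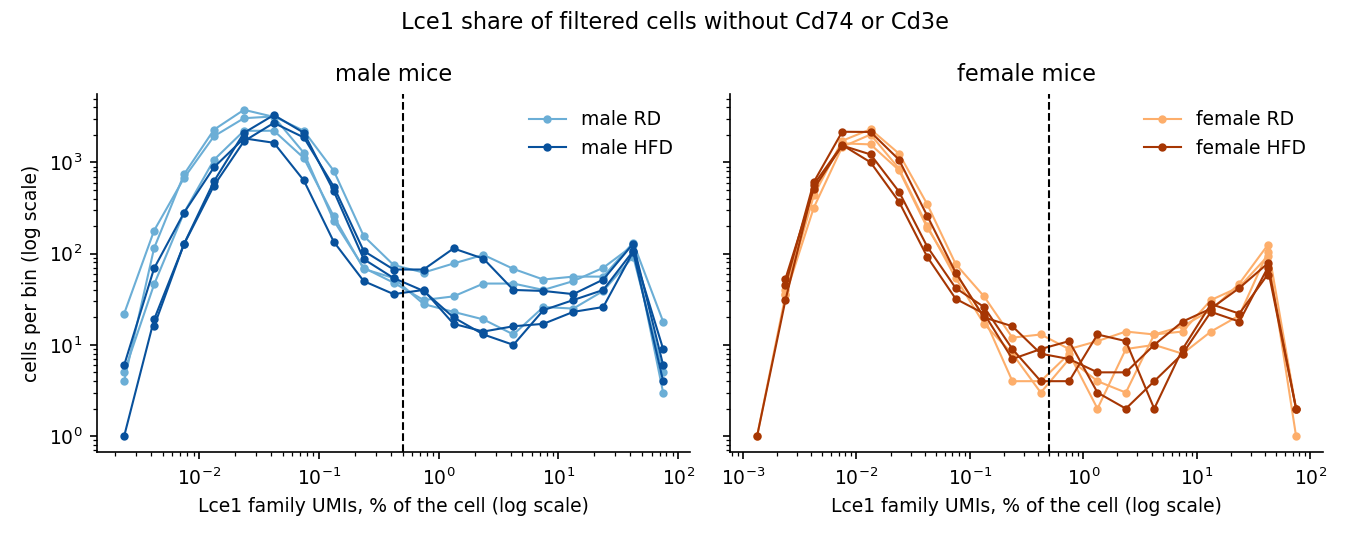
Number of filtered cells without Cd74 or Cd3e (log scale) by the Lce1 family's share of the cell's UMIs in percent (log scale), 1 line per mouse, males left and females right; the dashed line is the 0.5% cut. Most cells lie below 0.1% and a second peak lies above 10%, and the stretch between them holds more cells in male than in female mice.

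Cell numbers and quality differed between mice. The male RD mice gave 453, 629 and 281 Lce1 keratinocytes, the male HFD mice 269, 584 and 303, the female RD mice 178, 210 and 262 and the female HFD mice 194, 143 and 149. Their median depth ran from 5375 to 23771 UMIs per cell. Male RD 2 and male HFD 2 stood apart in depth. In these, 33.4% and 41.1% of the Lce1 keratinocytes had under 2000 UMIs, against 0.562% to 16.8% in the other 10 libraries. Of the filtered cells, 12 to 59 barcodes were shared by each of the 66 pairs of libraries, and 0 barcodes of Lce1 keratinocytes occurred in more than 1 library. No doublet caller was used for the values given; removing the highest doublet scores would take 8.18% to 28.6% of Lce1 keratinocytes per library, against 4.88% to 13.3% of all cells.

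The RNA of Lce1 keratinocytes was dominated by few genes. The 10 most abundant genes held 28.9% to 39.2% of UMIs per mouse, against 8.03% to 11.8% in other keratinocytes. Cells with at least 2000 UMIs were thinned to 2000 UMIs, with 300 other keratinocytes sampled per library, and cells with fewer UMIs were left out. The median per mouse was then 355 to 566 genes in Lce1 keratinocytes and 819 to 1021 genes in other keratinocytes, with no overlap between the classes. Before thinning, over all cells, the median was 763 to 1501 genes and 1884 to 3407 genes. Mitochondrial UMIs were at a median of 0.356% to 1.29% and 1.97% to 3.54%, in that order.

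The 5 given markers were all higher in Lce1 keratinocytes than in other keratinocytes in each of the 12 mice. For Lce1a1 and Lce1b this was the rule itself. Lor averaged 73890 ± 10780 CPM (SD, n = 12) against 810 CPM. Its levels were 65590, 52450 and 80780 CPM in male RD, 90150, 76200 and 83890 CPM in male HFD, 82740, 61730 and 73870 CPM in female RD and 74790, 79320 and 65180 CPM in female HFD mice. Flg averaged 29020 ± 8031 CPM against 490 CPM, and was higher in males (31920 to 42280 CPM) than in females (18410 to 26320 CPM). Il18, an interleukin 1 family cytokine that is kept as a precursor in keratinocytes, averaged 805 ± 144 CPM against 13.8 CPM. Of the 5 markers the study names for tdKCs, 4 were higher in every mouse. The exception was Ivl, which encodes the envelope protein involucrin and was lower in Lce1 keratinocytes in each of the 12 mice, at 3.05 to 17.2 CPM in Lce1 and 8.10 to 33.2 CPM in other keratinocytes.

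Markers of basal and proliferating keratinocytes were lower. The 8 markers of basal keratinocytes summed to 673 to 2966 CPM in Lce1 keratinocytes, against 8120 to 11250 CPM in other keratinocytes, and all 8 were lower in every mouse. The 8 proliferation markers summed to 19.9 to 255 CPM against 503 to 825 CPM. The 7 markers of migratory or duct keratinocytes, in contrast, summed to 452 to 2389 CPM in Lce1 and 838 to 1633 CPM in other keratinocytes, and of the 6 detected 2 were higher and 1 lower in every mouse. Langerhans cell markers summed to 46.4 to 107 CPM, against 83.7 to 146.5 CPM, with Cd74 at 0 by rule, and T cell markers to 5.51 to 22.5 CPM, with Cd3e at 0 by rule and Cd3d, Cd3g and Trdc also at 0 in 3 of the 4 groups. Melanocyte markers summed to at most 1.38 CPM, and Mlana, Tyrp1 and Tyr were at 0 in all groups. Of the list of Merkel cell and sweat gland markers only Aqp5, a water channel, was above 1 CPM: it stood at 217 CPM in Lce1 and 20.9 to 66.5 CPM in other keratinocytes, while Atoh1 was at 0.

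Cornified envelope precursors outside the Lce1 family were the most strongly represented group. Of 36 other listed genes of the complex, 30 reached 1 CPM in Lce1 keratinocytes, 19 were higher there in every mouse and 3 were lower in every mouse. Such list counts, here and below, stand without the share of all genes that did so. They do not show that a list differs from the rest. Their summed level was 141200 CPM (115900 to 175900) against 3022 CPM (1403 to 5378) in other keratinocytes. Lce6a, a single late cornified envelope gene, had 1739 ± 366 CPM against 1.64 CPM. Flg2, which encodes filaggrin 2, had 926 ± 286 CPM against 3.78 CPM, and Kprp, a proline-rich envelope protein gene, had 5161 ± 563 CPM against 26.4 CPM. Hrnr, the filaggrin relative hornerin, had 12510 ± 1391 CPM against 384 CPM. Sprr1b, a small proline-rich envelope precursor, was an exception, with 480 CPM against 817 CPM.

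Among 803 genes with at least 50 CPM in the Lce1 keratinocytes of every mouse, 342 had a mean more than 2 times that in other keratinocytes and 139 more than 10 times. The 30 with the largest ratio outside the Lce1 family ran from 88.1 to 1698 times, and 7 of them lay on chromosome 3. Apart from envelope genes they held lipid and membrane genes, namely Smpd3 (a neutral sphingomyelinase, 820 against 6.57 CPM), Gba2 (a glucosylceramidase, 94.3 against 0.774 CPM) and Spns2 (a sphingosine 1-phosphate transporter, 322 against 3.44 CPM). They also held Hmox1, the haem oxygenase induced by oxidative stress (638 against 7.15 CPM), Btc, the EGF receptor ligand betacellulin (217 against 1.16 CPM), Fmo2, a flavin monooxygenase (312 against 0.641 CPM), and Kctd4 (944 against 5.07 CPM). The largest ratio was that of Gm38119, a chromosome 3 gene with 134 CPM against 0.0791 CPM.

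**Figure D2:**
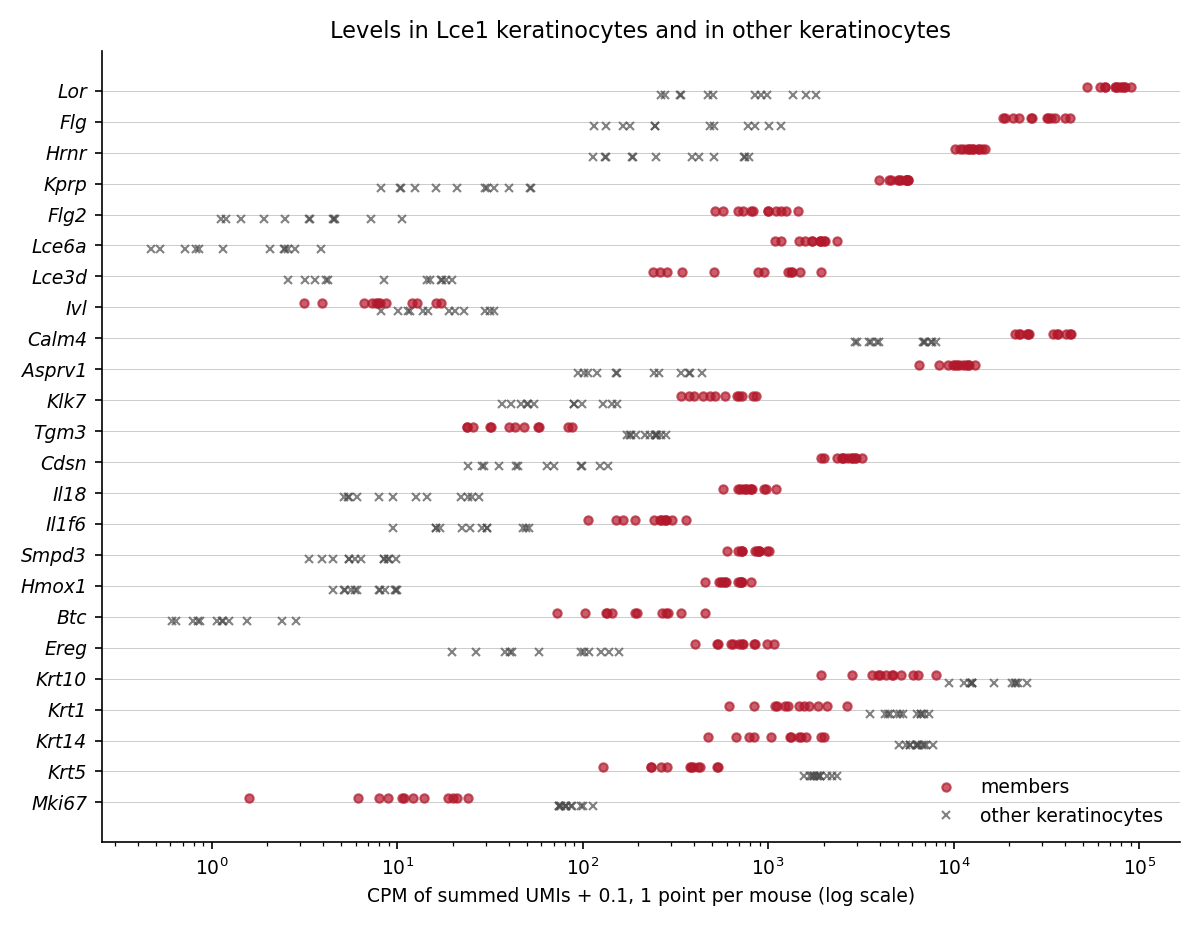
Level of 24 named genes in CPM (log scale, with 0.1 added) in Lce1 keratinocytes (filled circles) and in other keratinocytes (crosses), 1 point per mouse and class. Lor, Flg, Hrnr, Kprp, Flg2 and Lce6a are separated by far more than the spread between mice, while Krt10, Krt1, Krt14, Krt5 and Mki67 lie lower in Lce1 keratinocytes, as does Ivl within each mouse, with ranges that overlap between mice.

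Proteases and organelle breakdown genes followed. Of 22 detected genes for filaggrin processing and shedding, 13 were higher in every mouse and 2 lower, with a summed level of 14150 CPM against 1558 CPM. Asprv1, the skin aspartic protease that cleaves profilaggrin, led with 10450 ± 1785 CPM against 229 CPM. Klk7, a kallikrein that cuts corneodesmosomes, had 578 ± 177 CPM against 81.9 CPM. Of 16 detected genes for nucleus and organelle breakdown, 9 were higher and 6 lower in every mouse. Among the higher were Gabarapl2 (3906 ± 845 against 128 CPM) and Map1lc3a (2618 ± 361 against 192 CPM), both autophagosome proteins, and the nuclease genes Dnase1l2 (212 against 8.54 CPM) and Trex2 (370 against 12.4 CPM). Barrier lipid genes were divided, with 14 of 33 higher and 13 lower in every mouse.

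Most listed genes for the machinery of younger keratinocytes had lower CPM. All 79 detected cytosolic ribosomal protein genes were lower in Lce1 keratinocytes in every mouse, with a summed level of 71470 CPM against 262700 CPM, and so were the 13 mitochondrially encoded genes (9167 against 26540 CPM). Of 13 detected keratins, 11 were lower in every mouse. Krt10, the suprabasal keratin, had 4649 ± 1653 CPM against 16490 CPM, while Krt78 (181 against 36.3 CPM) and Krt80 (338 against 71.9 CPM), which mark late layers, were higher. Of 19 desmosome and tight junction genes, 18 were lower in every mouse, as were 17 of 22 cholesterol synthesis genes. Of 25 detected transcription factors of differentiation, 21 were lower, and Prdm1 (Blimp1) stood out as higher, with 238 ± 31.8 CPM against 28.9 CPM. CPM are shares of a total, so the RNA taken up by the Lce1 family lowers the values of all other genes.

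Interleukin 1 family genes were divided. Of 15 detected, 9 were higher in every mouse and 5 lower. Il1f8 (IL-36 beta, 171 ± 27.7 against 8.47 CPM), Il1f6 (IL-36 alpha, 241 ± 72.5 against 28.6 CPM), Il1f5 (the IL-36 receptor antagonist, 360 ± 92.0 against 64.4 CPM) and Il1a (100 ± 45.8 against 6.89 CPM) were among the higher ones, as was Il1r2, the decoy receptor (85.1 against 11.3 CPM). Pycard, the inflammasome adaptor, was lower (111 against 533 CPM). Of 29 detected mediators towards nerves and immune cells, 5 were higher in every mouse and 20 lower. Ereg, the EGF receptor ligand epiregulin, was the most abundant at 720 ± 192 CPM against 79.5 CPM.

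Lce1 keratinocytes were not uniform. Sorted by Lce1 share, 1238 male cells (49.2%) and 873 female cells (76.9%) had at least 10%. The gene minimum was lower in males, and some male mice held shallow cells in the low ranges. Median depths per male mouse went down to 818 UMIs at 0.5% to 1% and 1032 at 1% to 2%, against 8136 and 5778 in females. A difference in stage between the sexes was not tested. Early and late below name a low and a high Lce1 share only. Male cells with at least 2000 UMIs were thinned to 2000. In the lowest range, 0.5% to 1%, this kept from 13 of 49 cells (male HFD 3) to 32 of 39 (male RD 1). Their median over mice was 714 genes in the lowest range and 299 in the highest. Female mice gave 721 (2 mice with enough cells) and 360 genes.

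Levels along this range are given as CPM with Lce1 UMIs left out of the total, in the 8 mice with at least 10 cells at both 1% to 2% and at least 10% Lce1. These were all 6 male mice and 2 of the 6 female mice, with 15 cells each at 1% to 2%, so the values are mostly those of males. Of 1911 genes with at least 50 CPM in either range, 259 were higher late in all 8 mice and 1082 were lower late in all 8. The ranges were cut from the same cells and are a description. Lce6a went from 58.3 CPM early to 3451 CPM late, Kctd4 from 65.9 to 1663 CPM, Gabarapl2 from 954 to 7072 CPM, Hmox1 from 207 to 1333 CPM and Il1a from 11.8 to 156 CPM. Gadd45a, a growth arrest and DNA damage gene, went from 131 to 506 CPM. Lor rose with less contrast, from 58580 to 123800 CPM, and Flg from 33370 to 51170 CPM.

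Other genes went the other way. Il1f6 went from 905 CPM early to 56.1 CPM late, Ereg from 2363 to 405 CPM and Il1f5 from 1252 to 207 CPM, each lower in 8 of 8 mice. Cst6, a cystatin that restrains cathepsins, went from 3529 to 516 CPM, and the kallikrein gene Klk5 from 389 to 65.7 CPM. Il18 changed little, from 1342 to 1087 CPM, and was lower in 7 of 8 mice. Of 76 ribosomal protein genes 75 were lower late in every mouse, while of 12 organelle breakdown genes 6 were higher and 2 lower. Of 10 interleukin 1 family genes 2 were higher and 5 lower late in every mouse.

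**Figure D3:**
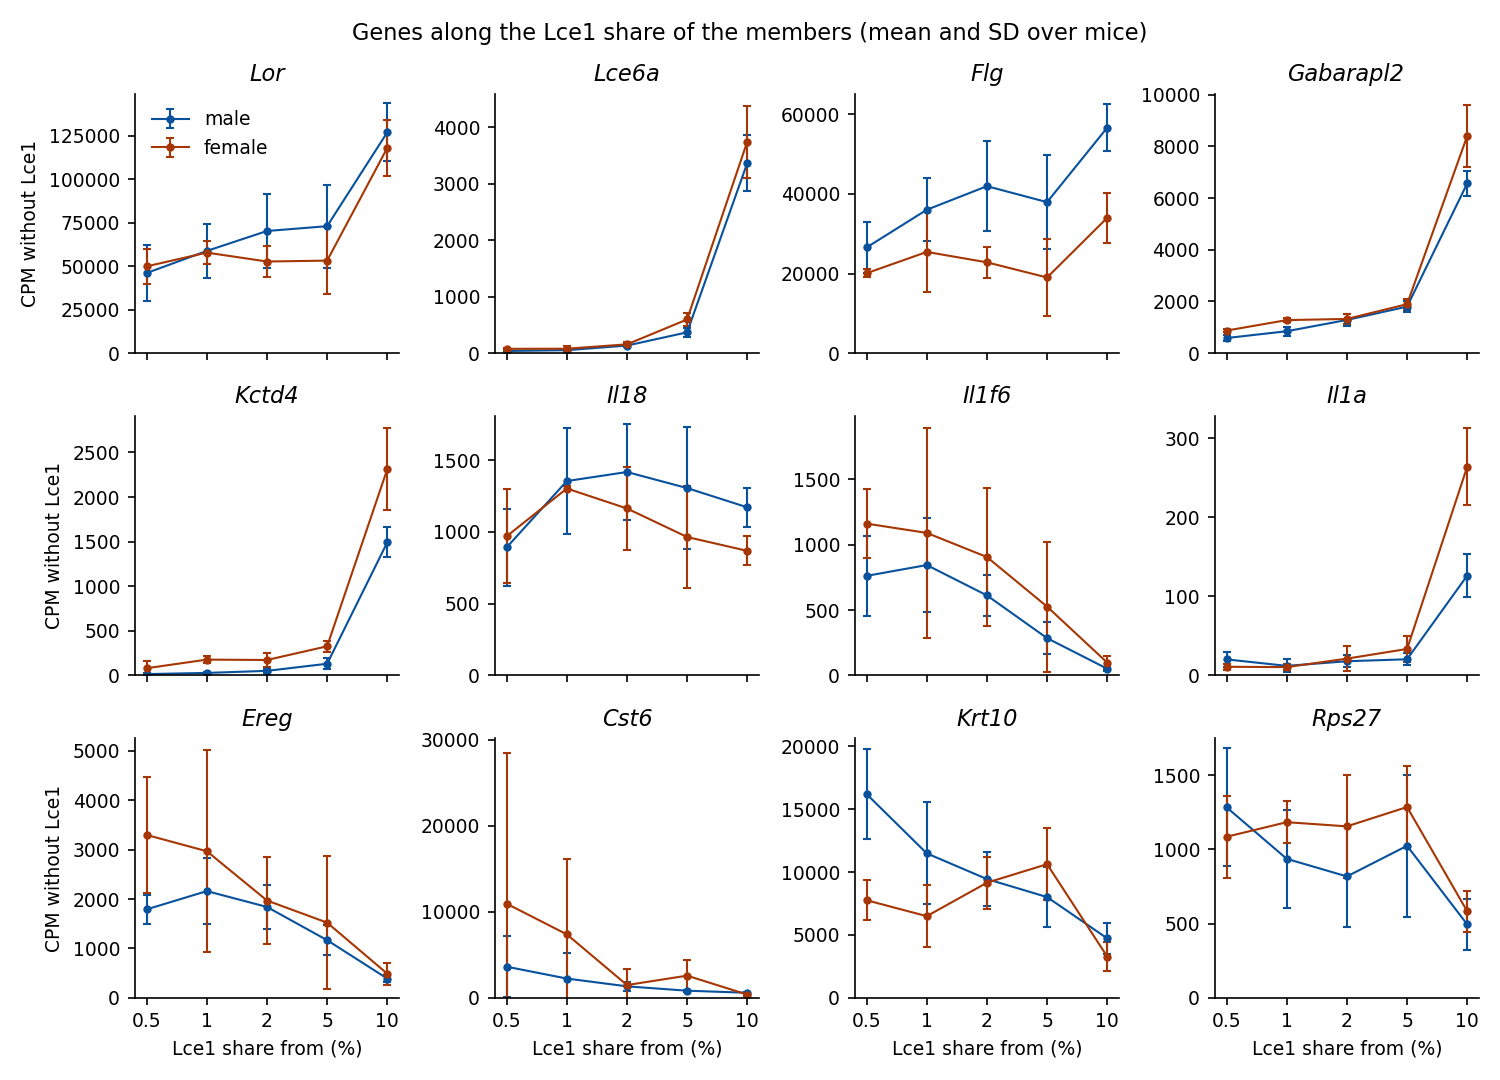
CPM without Lce1 UMIs (linear scale) against the lower bound of the Lce1 share range in percent (spaced evenly), mean and SD over mice with at least 10 cells in a range, males and females apart. Lce6a, Gabarapl2, Kctd4 and Il1a climb in the last range, Il1f6, Ereg and Krt10 fall along it, and the means of Il18 stay between 869 and 1418 CPM.

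The share of Lce1 keratinocytes among filtered cells was compared between diets. It was 3.29%, 4.14% and 3.39% in male RD mice and 4.32%, 6.64% and 3.07% in male HFD mice, and the groups overlapped. The means were 3.61% ± 0.465 and 4.68% ± 1.82 (SD, n = 3 each), a difference of 1.07 points with p = 0.6 in a two-sided exact permutation test. Without male HFD 2 the difference was 0.0869 points. With at least 2000 UMIs per Lce1 keratinocyte, a setting chosen after seeing the data, it was 0.41 points. In females the share was 1.93%, 1.65% and 2.34% with RD and 1.61%, 1.55% and 1.52% with HFD. The groups did not overlap, with means of 1.97% ± 0.349 and 1.56% ± 0.0454, and the difference of -0.41 points gave p = 0.1 in the exact permutation test, which is the smallest p that 3 against 3 mice allow. Without female RD 3 the difference was -0.23 points. The 95% Wilson intervals, which cover counting error only, ran from 6.14% to 7.18% for the highest share and from 1.30% to 1.79% for the lowest. The median Lce1 share per cell was 11.5% ± 5.31 in male RD and 13.7% ± 8.87 in male HFD mice (SD, n = 3 each), and 31.9% ± 4.54 and 26.8% ± 5.79 in female mice. The rule used this share, so no test is given. The male difference of 2.21 points turned to -0.72, -0.38 and -0.32 points without male RD 2, HFD 1 and HFD 3 in turn, and to -0.15 points with the highest doublet scores removed. In male cells with at least 2% Lce1 it was 8.82 points. The female difference of -5.11 points ran from -8.15 to -2.39 points when 1 mouse was left out. It was -1.36 points with the highest doublet scores removed. How many cells of each kind the peeling and digestion released was not measured, so a share of captured cells is not a share of the epidermis.

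**Figure D4:**
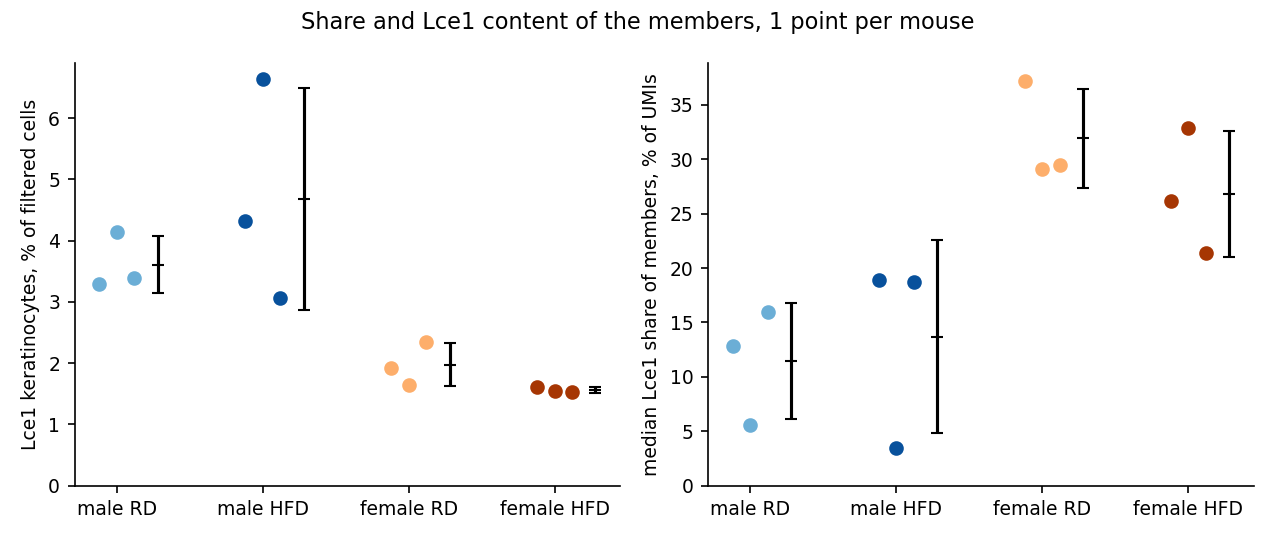
Left, Lce1 keratinocytes in percent of filtered cells; right, the median Lce1 share of their UMIs in percent; 1 point per mouse, with the mean and SD (n = 3) beside each group. Male HFD mice spread from 3.07% to 6.64%, and male RD 2 and male HFD 2 have the lowest median Lce1 shares.

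For gene expression, UMIs were summed over the Lce1 keratinocytes of each mouse and HFD was compared with RD by edgeR's quasi-likelihood test on TMM-scaled sums, with Benjamini-Hochberg adjustment over all genes tested. In males 7800 genes were tested and 1 passed an adjusted p of 0.05, which is 0.0128% of the genes. In females it was 1 of 7662, or 0.0131%. Single mice decided these counts: 88 genes passed without male RD 3 and 13 without male HFD 2, 0 passed in males without male RD 1, RD 2 or HFD 1, and 52 passed in females without female RD 2 and 2 to 7 without any other female mouse. DESeq2 called 65 genes in males, all higher with HFD, and 20 in females, 5 higher and 15 lower. At an unadjusted p under 0.05, 9.64% of genes were higher and 4.62% lower in males, and 4.65% higher and 4.4% lower in females. These splits depended on the scaling. With library size alone, 46 genes were higher and 1947 lower in males and 459 higher and 98 lower in females, against 752 and 360, and 356 and 337, with TMM. The median log2 difference over all male genes was then -0.56 in place of -0.06, and over all female genes 0.21 in place of 0.03.

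The gene called in males was Sprr2e, a small proline-rich envelope precursor. Its TMM-scaled level was 3.85, 2.52 and 3.78 CPM with RD and 27.4, 11.1 and 23.2 CPM with HFD, a log2 difference of 2.58 ± 0.34 (SE, adjusted p = 0.0231, edgeR's quasi-likelihood test). The groups did not overlap. The UMIs came from few cells, however: in the HFD mice 7, 5 and 10 cells held 117, 73 and 107 UMIs, of which 92, 56 and 61 were in 1 cell each. In the RD mice 17, 9 and 7 cells held 42, 19 and 17 UMIs. Without the highest cell of each mouse the levels, in CPM without TMM scaling, were 2.87, 2.42 and 1.48 with RD and 4.16, 2.63 and 8.31 with HFD. The TMM factors, by which such values are divided, were 1.255, 1.406 and 0.952 with RD and 0.709, 1.016 and 0.827 with HFD. An overlap of the unscaled values is thus not an overlap on the TMM scale. The number of positive cells was not higher with HFD, and 1 cell per HFD mouse held most of the UMIs. The call was lost when the cells with the highest doublet scores were removed (log2 difference 1.51, adjusted p = 0.565, edgeR's quasi-likelihood test), and without male RD 1, RD 2, HFD 1 or HFD 3 in turn (adjusted p = 0.126, 0.0842, 0.187 and 0.0823, edgeR's quasi-likelihood test). The next genes by p did not pass (adjusted p = 0.112 to 0.175, edgeR's quasi-likelihood test) and were all higher with HFD without overlap: Mirt1, Ppm1d (a p53-induced phosphatase, 8.24 against 18.8 CPM), Krtap3-2 (a hair keratin-associated protein gene, 36.7 against 116 CPM) and 1110002J07Rik.

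The gene called in females was Defb6, a beta-defensin. Its TMM-scaled level was 5.64, 9.90 and 1.57 CPM with RD and 93.0, 135 and 54.0 CPM with HFD, a log2 difference of 4.02 ± 0.45 (SE, adjusted p = 0.000704, edgeR's quasi-likelihood test). Here too few cells carried it. In the HFD mice 11, 6 and 3 cells held 345, 295 and 147 Defb6 UMIs, with 186, 276 and 139 in 1 cell each, and in the RD mice 8, 7 and 4 cells held 14, 32 and 5 UMIs. Without the highest cell of each mouse the levels, in CPM without TMM scaling, were 3.01, 2.09 and 0.828 with RD and 45.4, 8.35 and 3.54 with HFD. When the cells with the highest doublet scores were removed, Defb6 no longer passed the filter on low counts and was not tested. The call was lost in cells with at least 2% or at least 10% Lce1 (log2 differences 3.38 and 2.80, adjusted p = 0.183 and 0.0822, edgeR's quasi-likelihood test). In other keratinocytes Defb6 pointed the other way, with 123 CPM with RD and 75.02 CPM with HFD (log2 difference -0.71, adjusted p = 0.112, edgeR's quasi-likelihood test). Further genes of small p did not pass (adjusted p = 0.0538 to 0.0612, edgeR's quasi-likelihood test). Of these, C1qtnf12 had a higher mean with HFD, and Slpi, a protease inhibitor, and Sprr2i, an envelope precursor, had lower ones. Slpi was at 101.2, 220 and 46.3 CPM with RD and 30.7, 11.5 and 13.2 CPM with HFD. In female RD 2, 1 cell held 437 of 711 Slpi UMIs and 1 cell 276 of 449 Sprr2i UMIs, and in female RD 1 a cell held 104 of 251 Slpi UMIs. The highest cells for both genes in female RD 2 had an Lce1 share of 4.64%, and whether they were 1 cell was not tested. Without the highest cell of each mouse Slpi, in CPM without TMM scaling, was at 48.7, 95.2 and 32.9 with RD and 23.1, 8.79 and 11.8 with HFD.

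Medians of several gene groups lay above that of all genes in males and below it in females, although Sprr2e and Defb6 were the only genes that passed in edgeR's quasi-likelihood test. The difference between the sexes was not tested for the groups. Medians in other keratinocytes of the same mice pointed the same ways. Other genes of the complex had 0.426 in males and -0.555 in females there, and Lce1 genes 0.379 and -0.294. Protease genes had 0.206 and -0.156, interleukin 1 family genes 0.099 and -0.088 and organelle breakdown genes 0.087 and -0.081. The medians over all genes there were -0.007 and 0.008. In the Lce1 keratinocytes of males all 14 Lce1 genes had higher means with HFD, with a median log2 difference of 0.76 against -0.06 over all genes tested. The rule used these genes, so no test is given. Of 25 other tested genes of the complex 24 had higher means with HFD (median 0.69), 1 passed (Sprr2e) and 11 had an unadjusted p under 0.05, all higher, against 9.64% of all genes. In females all 14 Lce1 genes had lower means (median -0.25 against 0.03), and so had 22 of 23 other genes of the complex (median -0.55), of which 0 passed in edgeR's quasi-likelihood test and 10 had an unadjusted p under 0.05, all lower, against 4.4% of all genes. Protease genes followed, with medians of 0.55 in males (21 of 21 higher, 5 at an unadjusted p under 0.05) and -0.37 in females (19 of 21 lower, 3 at an unadjusted p under 0.05). Interleukin 1 family genes had medians of 0.45 and -0.41 and organelle breakdown genes of 0.46 and -0.23. These values depended on the scaling. With library size alone, where the median over all genes was -0.56 in males and 0.21 in females, the male medians were 0.30 for Lce1, 0.22 for other genes of the complex, 0.04 for protease, -0.06 for interleukin 1 family and -0.05 for organelle breakdown genes, and the female medians were, in that order, -0.05, -0.34, -0.18, -0.22 and -0.03. Cytosolic ribosomal protein genes had medians of -0.24 in males and 0.09 in females, and single mice moved these too: the male median was -0.14 without male RD 1, and the female one -0.02 without female RD 1, 0.01 without female HFD 3, 0.16 without female RD 2 and 0.17 without female HFD 2. With library size alone they were -0.76 and 0.27.

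Single mice moved these medians by over 1.5 times. In males, without HFD 1 that of protease genes was 0.29 and that of interleukin 1 family genes 0.14, the latter was 0.23 without RD 2, and that of Lce1 genes was 1.17 without RD 3. In females, without HFD 3 the medians were -0.14 for Lce1, -0.18 for protease, -0.18 for interleukin 1 family and -0.11 for organelle breakdown genes, and without RD 1 they were -0.12 for Lce1, -0.36 for other genes of the complex and -0.15 for organelle breakdown genes. Without HFD 2 those of Lce1 and protease genes were -0.41 and -0.55, and without RD 2 that of Lce1 genes was -0.39. The choice of cells moved medians too. With the highest doublet scores removed, interleukin 1 family genes had 0.262 in males and -0.235 in females. Organelle breakdown genes had 0.295 and -0.151, and other genes of the complex 0.375 in males. In cells with at least 10% Lce1, Lce1 genes had 0.478 and -0.484 and organelle breakdown genes 0.257 and -0.397. Other genes of the complex had 0.307 in males, and interleukin 1 family genes -0.619 in females.

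Over 13 settings (2 other scalings, 4 other choices of cells, leaving out each mouse, and the values above), the other genes of the complex kept a median above that of all genes in males, by 0.39 to 1.06, and below it in females, by 0.36 to 0.72. Lor was at 52477, 37503 and 85152 CPM in male RD and 127487, 75232 and 101704 CPM in male HFD mice on the TMM scale (log2 difference 0.80 ± 0.36, adjusted p = 0.346, edgeR's quasi-likelihood test), and the groups overlapped. Lce3e was at 306, 575 and 322 CPM in female RD and 196, 168 and 145 CPM in female HFD mice (-1.24 ± 0.27, adjusted p = 0.131, edgeR's quasi-likelihood test) without overlap. Without TMM scaling, the median log2 difference over all genes was -0.561 in males and 0.215 in females. Markers of basal keratinocytes, summed in CPM without TMM scaling and so not on the scale of Lor and Lce3e above, pointed the other way, with overlapping ranges in both sexes. They summed to 1500 to 2892 CPM in male RD and 673 to 1928 CPM in male HFD Lce1 keratinocytes, and to 1061 to 2368 CPM in female RD and 1961 to 2966 CPM in female HFD. Their part in the result was not tested.

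The difference between the diet effects of the sexes was tested in 1 fit of all 12 mice, in which 0 of 8927 genes passed (0%) with edgeR's quasi-likelihood test, 1808 had an unadjusted p under 0.05 and DESeq2 called 378. No single gene was thus shown by this test to respond differently in the sexes. The genes with the smallest p were Asap2, Il1f10, Gadd45gip1, Icam1 and Defb6 (adjusted p = 0.0901, edgeR's quasi-likelihood test). Il1f10, an interleukin 1 family cytokine gene (IL-38), was at 25.1, 23.3 and 25.8 CPM in male RD and 54.1, 61.7 and 38.8 CPM in male HFD mice, but at 65.3, 44.3 and 72.1 CPM in female RD and 37.2, 44.0 and 34.9 CPM in female HFD mice. Neither sex's groups overlapped and the order was reversed. Icam1, an adhesion molecule for leukocytes, did the opposite: 15.4, 21.0 and 10.4 CPM in male RD against 5.86, 7.77 and 5.86 CPM in male HFD mice, and 18.5, 32.5 and 15.7 CPM against 36.9, 36.2 and 59.5 CPM in females. Icam1 was found in more of the other keratinocytes, with a UMI in 27.4% to 52.3%, against 3.96% to 21.5% of Lce1 keratinocytes. In female HFD 1 a single cell held 37 of 137 Icam1 UMIs. Basal marker sums, given above in CPM without TMM scaling, moved in the same directions with overlapping groups, and their part in the result was not tested.

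Because mice differed in how far their cells lay along the Lce1 range, the comparison was repeated in cells with at least 10% Lce1, an alternative chosen after seeing the data. In males 17 of 5612 genes passed, 12 higher and 5 lower with HFD. Among the higher were Btc and Areg, which encode EGF receptor ligands. Btc was at 54.8, 69.8 and 43.1 CPM with RD and 139, 122 and 158 CPM with HFD (log2 difference 1.32 ± 0.21, adjusted p = 0.0165, edgeR's quasi-likelihood test), and Areg (amphiregulin) was at 56.1, 39.2 and 55.1 CPM against 111, 114 and 79.9 CPM (1.02 ± 0.21, adjusted p = 0.0405, edgeR's quasi-likelihood test). Gadd45a was at 149, 159 and 182 CPM with RD and 304, 320 and 323 CPM with HFD (0.95 ± 0.18, adjusted p = 0.0222, edgeR's quasi-likelihood test), and Ppm1d passed too (8.95 against 21.3 CPM). Further genes that passed were Phlda1 (60.5 against 151 CPM) and Abcg1, a sterol exporter (18.2 against 39.0 CPM). Lce3a fell, from 65.6, 31.2 and 62.9 CPM to 13.8, 20.2 and 6.66 CPM (-1.96 ± 0.32, adjusted p = 0.0165, edgeR's quasi-likelihood test). Its log2 difference over all Lce1 keratinocytes was 0.76 and did not pass. There 1 cell of male HFD 3, with an Lce1 share of 6.75%, held 1237 of 1410 Lce3a UMIs. In that mouse the highest cells for Sprr2e (61 of 107 UMIs), Lce3b (943 of 960), Lce3d (1208 of 7482), Lce3e (1217 of 6726) and Sprr2i (509 of 829) had the same Lce1 share. Whether they were 1 cell was not tested. Without the highest cell of each mouse the Lce3a levels, in CPM without TMM scaling, were 167, 48.5 and 79.2 with RD and 48.0, 74.1 and 31.3 with HFD.

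In females 7 of 6105 genes passed in cells with at least 10% Lce1. Cited2, a transcriptional co-regulator, fell from 647, 504 and 673 CPM to 231, 239 and 203 CPM (-1.44 ± 0.25, adjusted p = 0.036, edgeR's quasi-likelihood test). Ereg fell from 529, 470 and 518 CPM to 179, 228 and 140 CPM (-1.47 ± 0.26, adjusted p = 0.036, edgeR's quasi-likelihood test), and in these cells of males its values were 184, 203 and 209 CPM with RD and 396, 275 and 304 CPM with HFD (adjusted p = 0.108, edgeR's quasi-likelihood test). Lce3e fell from 329 to 110 CPM and Cyp26b1, which degrades retinoic acid, from 112 to 43.0 CPM. Krt17, a keratin of hair follicles and stressed epidermis, rose from 12.6 to 60.5 CPM, and the proliferation genes Pclaf (3.67 to 16.8 CPM) and Cenpa (4.28 to 19.7 CPM) rose with it. Each was found in a larger share of other keratinocytes, with a UMI in 29.3% to 37.7% of them for Krt17 and 14.3% to 22.4% for Pclaf, against 9.16% to 19.5% and 1.12% to 12.1% of all female Lce1 keratinocytes, and in female HFD 1 a single cell held 139 of 339 Krt17 UMIs. Marker sums are given over all female Lce1 keratinocytes, not only those with at least 10% Lce1, and in CPM without TMM scaling. Proliferation markers summed to 42.2 to 128 CPM in female RD and 126 to 255 CPM in female HFD mice, and basal markers to 1061 to 2368 CPM and 1961 to 2966 CPM. Their part in the result was not tested. In these cells 14 genes passed the test of the difference between diet effects.

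**Figure D5:**
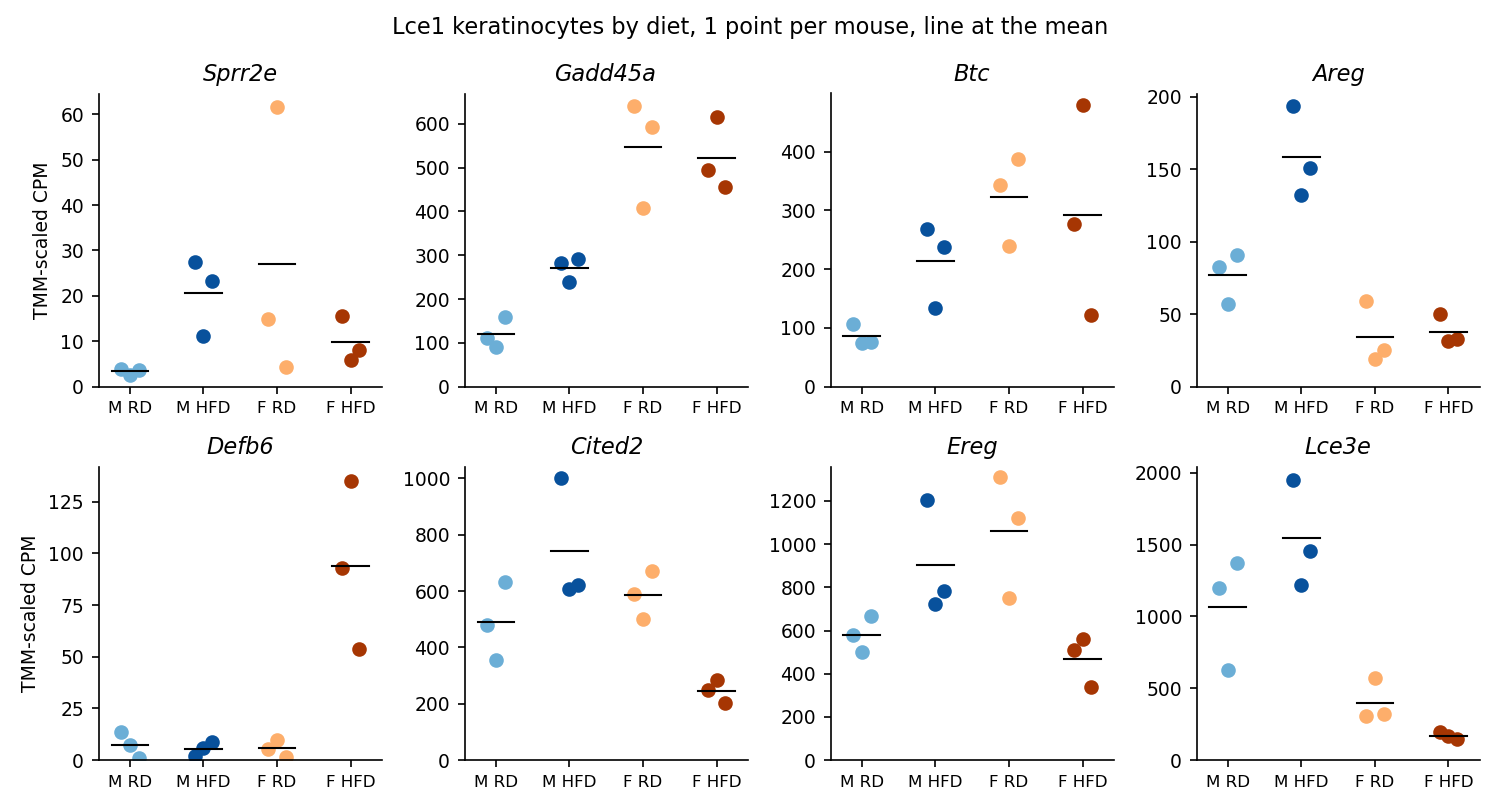
TMM-scaled CPM (linear scale) of 8 genes in Lce1 keratinocytes by sex and diet, 1 point per mouse, line at the mean of 3 mice; scaling was done within each sex. The diet groups do not overlap for Sprr2e and Gadd45a in males and for Defb6, Cited2 and Lce3e in females, and Ereg has its higher group under HFD in males and under RD in females.

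Other keratinocytes of the same mice were compared in the same way. In males 8 of 14927 genes passed (0.0536%), 7 higher with HFD: Il1f6, Gsdma (a pore-forming gasdermin), Klk7, Hrnr, Dusp5, Lor and Acsbg1, and Chka, choline kinase, was lower. Lor was at 862, 954 and 878 CPM with RD and 1638, 1412 and 1796 CPM with HFD (0.85 ± 0.10, adjusted p = 0.0378, edgeR's quasi-likelihood test). Male cells with at least 5 Cd74 UMIs, which should lack both genes, held Lor at 608 to 7378 CPM. Their Hrnr was at 228 to 1208 CPM. These sums kept cells above the Lce1 cut, which other keratinocytes leave out, so the ranges do not measure free RNA alone. In male HFD 3, where 0 of the Cd74 cells reached the cut, Lor was at 608 CPM and Hrnr at 228 CPM. The part of free RNA in the result was not tested. In females 562 of 17604 passed (3.19%), 245 higher and 317 lower. Here too 1 mouse could decide: the male count was 71 without male RD 2 and 0 without any of the other 5 male mice, and the female count was 941 without female HFD 2, 470 without female HFD 1 and 0 to 5 without any of the other 4 female mice.

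Whether a diet difference of Lce1 keratinocytes differed from that of other keratinocytes of the same mouse was tested with the mouse as a block. In males 18 of 14396 genes passed (0.125%), 17 with a more positive log2 difference in Lce1 keratinocytes. The diet difference of Rcbtb2 was higher by 1.27 ± 0.24 (adjusted p = 0.0149, edgeR's quasi-likelihood test), a call lost in 3 of 9 alternatives. Its level was 21.5, 19.9 and 48.4 CPM with RD and 68.9, 68.5 and 50.8 CPM with HFD in Lce1 keratinocytes, and 7.46, 6.55 and 7.38 CPM against 6.81, 7.31 and 6.57 CPM in other keratinocytes. Lor, in contrast, had a difference of 0.05 ± 0.30 between classes (adjusted p = 0.994, edgeR's quasi-likelihood test). In females 52 of 17191 genes passed (0.302%), 25 higher and 27 lower. Cited2 was among the lower, by -1.34 ± 0.22 (adjusted p = 9.05e-07, edgeR's quasi-likelihood test): other keratinocytes had 52.5 CPM with RD and 54.1 CPM with HFD. Slpi was lower by -2.16 ± 0.23 (adjusted p = 5.25e-17, edgeR's quasi-likelihood test). As given above, 1 cell of female RD 2 held 437 of 711 Slpi UMIs in Lce1 keratinocytes. The male count was 730 without male HFD 2, 311 without male RD 3 and 30 without male HFD 1, and the female count 211 without female RD 2, 80 without female HFD 2 and 28 without female HFD 3.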

How the data were processed

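UMIs of single cells from the hind paw epidermis of 12 mice were analysed. The deposited matrices hold UMI counts per gene and barcode, made by the authors with Cell Ranger (7.2.0 per the labels, 6.1.0 in the headers of the male matrices) on the mouse reference mm10 (GRCm38). Seurat 5.0.0 is named for later steps. Cells were filtered as stated above. Counts were summed per mouse and class and tested with edgeR 4.0.16 (TMM, glmQLFit, filterByExpr) in R 4.3.3. DESeq2 1.42.0 served as an alternative. Permutation tests used scipy 1.17.1. The diet fits within each sex were tested on simulated data. These held no sums carried by 1 cell, so such genes were not covered. The labels give 1 library per mouse, so the mouse was the replicate in each test. In the test between cell classes, genes held by 1 cell of 1 mouse also got small p-values. A small p there does not show that a difference recurred across mice. Depth in Lce1 keratinocytes was 2294688 to 8739537 UMIs per mouse. The members and gene lists were chosen with earlier results of these data known. Genes were named by list, by the smallest p in each comparison and by the 30 largest ratios. The genes of the cells with at least 10% Lce1, and Krtap3-2 beyond its diet value, were chosen after their values were seen. Scaling, count filter, cut, doublet scores, depth and each mouse in turn were varied. No cell type annotation by the authors was used. Some genes that the naming rule picks are not reported here.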

Additional observations from a re-analysis of the deposited data

Results flagged for a closer look

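A difference between cell classes under the same diet contrast brought out the following genes, from the 5 smallest p in each sex. Values are the log2 diet difference (HFD minus RD) in Lce1 keratinocytes minus that in other keratinocytes of the same mice, from edgeR's quasi-likelihood test with the mouse as a block. In males these were 2.57 ± 0.33 for Sprr2e (SE, adjusted p = 5.57e-06), 14.98 ± 2.83 for Krtap8-1 (adjusted p = 0.0149), 1.27 ± 0.24 for Rcbtb2 (adjusted p = 0.0149) and 1.17 ± 0.23 for Dlc1 (adjusted p = 0.0197). In females they were 4.58 ± 0.26 for Defb6 (adjusted p = 3.97e-65), 10.74 ± 0.66 for 2310061N02Rik (adjusted p = 1.65e-55), 6.49 ± 0.46 for Krtap3-3 (adjusted p = 9.16e-42), 10.24 ± 1.03 for 2310079G19Rik (adjusted p = 1.35e-17) and 16.23 ± 1.73 for Krtap13-1 (adjusted p = 2.1e-17). The genes with values over 10 held 0 to 5 UMIs in the Lce1 keratinocytes of each RD mouse of that sex, so these values are no measure of a fold. The call was lost for Dlc1 in 4, for Rcbtb2 in 3 and for Sprr2e and Krtap3-3 in 2 of 9 alternatives each, for 2310061N02Rik in 2 of 8, for Krtap13-1 in 1 of 8 and for Krtap8-1 and 2310079G19Rik in 1 of 6 each. Settings in which a gene fell below the count filter are not counted. Among these were Krtap8-1 without male HFD 3 and 2310079G19Rik without female HFD 3, the mice that held all or nearly all of their UMIs. The Defb6 call was kept in all 9. This test was not run with the highest doublet scores removed or with Lce1 of at least 2% or 10%. In those settings Defb6 could not be tested or did not pass in the diet test.

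Single cells carried most of these. The 16 Krtap8-1 UMIs of male Lce1 keratinocytes were in 1 cell of male HFD 3. In female HFD 3, 1 cell held 1016 of 1018 Krtap3-3 UMIs, all 845 UMIs of 2310061N02Rik, all 1123 of 2310079G19Rik and all 347 of Krtap13-1. That cell had 62620 UMIs, 5735 genes, an Lce1 share of 11.6% and 12428 UMIs (19.9%) from 15 hair keratin-associated protein genes, besides 444 Lor UMIs. Whether it was 1 cell or more in a droplet was not tested. Sprr2e and Defb6 rested on 1 cell per HFD mouse for most of their UMIs. The p-values treat these sums like those of any other gene, so a small p here does not show that a difference recurred across mice.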

How the results depend on the processing

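The number of genes passing the diet test in Lce1 keratinocytes was small and moved with most choices. In males, where it was 1, it became 65 with DESeq2, 149 with no filter on low counts, 0 with library size only, Lce1 of at least 0.25%, mitochondrial UMIs up to 10%, the highest doublet scores removed or all 12 mice in 1 fit, 3 with Lce1 of at least 2% and 5 with cells matched by Lce1 share. In females, where it was also 1, it became 20 with DESeq2, 111 with no filter, 0 with Lce1 of at least 2% or the highest doublet scores removed, 4 at 1%, 3 at 0.25%, 3 when matched and 5 with all 12 mice. For the difference between sexes, 0 became 378 with DESeq2, 391 with no filter, 1 at 1% and 2 when matched. Among settings chosen after seeing the data, at least 2000 UMIs gave 2, 3 and 8 genes for males, females and their difference, and at least 10% Lce1 gave 17, 7 and 14. Leaving out 1 mouse moved the male count to between 0 and 88, the female count to between 2 and 52 and that of the difference to between 0 and 148. In other keratinocytes, where this was added after seeing the data, it gave 0 to 71 and 0 to 941.

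For the difference between cell classes, no filter gave 116 genes in males, library size only 0 in males and 32 in females, and cells with 0.1% to 0.5% Lce1 as the other class 0 and 5. Leaving out 1 mouse gave 15 to 730 and 28 to 211. The share of Lce1 keratinocytes kept its direction (male 0.0869 to 1.88 points, female -0.57 to -0.23 points). The male difference in median Lce1 share per cell reversed to -0.15 points with the highest doublet scores removed and ran from -0.72 to 7.33 points when 1 mouse was left out, with -0.38 without male HFD 1 and -0.32 without male HFD 3. Lce3a in males reversed to -1.96 in cells with at least 10% Lce1, which leaves out the cell of male HFD 3 with 1237 of 1410 Lce3a UMIs, and 2310061N02Rik to -5.46 without female HFD 3. Sprr2e lost its call in 9 of 21 alternatives (log2 1.51 to 3.17) and Defb6 in 2 of 22 (2.80 to 5.09). Of the values of single genes followed under the alternatives, 498 kept their direction and side of the threshold, 93 newly passed, 66 no longer passed and 2 reversed. The causes were not tested.

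A fit with the replicate block, which pairs equal replicate numbers, called 356 male genes, 1 female gene and 1 gene for the difference. Mice of the same number deviated together only for number 2 in males (correlation 0.43, against -0.01 and -0.01 for the other male pairs and 0.05, -0.32 and -0.15 in females), so the numbers were not taken to pair mice.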

Other observations

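A hair keratin-associated protein gene, Krtap3-2 (GRCm38, chr11:99555823-99556853, minus strand), was found in many Lce1 keratinocytes, and was singled out after its values were seen. In female mice 34.3% to 60.1% of Lce1 keratinocytes had a UMI, in male mice 4.63% to 12.9%, and in other keratinocytes 0.0797% to 0.604%. Its UMIs came from 53 to 108 cells per female mouse, but in female HFD 3 1 cell with an Lce1 share of 11.6% held 802 of 2137, and the level there was 597 CPM without it. Along the Lce1 range it went from 1.39 CPM at 1% to 2% Lce1 to 670 CPM at 10% or more, higher in 8 of 8 mice (6 male and 2 female). Sex and Cell Ranger version cannot be told apart. With diet it changed by -0.13 on the log2 scale in females (adjusted p = 0.932, edgeR's quasi-likelihood test).

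Aqp5 was higher in the Lce1 keratinocytes of males (224 to 327 CPM) than of females (128 to 180 CPM), and in both above other keratinocytes (20.9 to 66.5 CPM), while the other listed Merkel cell and sweat gland markers stayed under 1 CPM. It was higher early, with 508 CPM at 1% to 2% Lce1 and 230 CPM at 10% or more.

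With 3 mice per group, an exact test of a single value could not fall below p = 0.1. Lce1 keratinocytes numbered 143 to 629 per mouse, so genes seen in few cells followed single cells. The 0.5% cut, the depth of male RD 2 and male HFD 2, and doublets, for which no caller was applied to the values given, limit what the diet comparisons can show.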
